A study of Mus musculus with 15 samples.

Results

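The enzymes that handle aldehydes, alcohols and esters were followed across liver tumors of mice, by taking every non-control probe of the array whose gene symbol begins with Adh, Aldh, Akr, Aox, Ces or Fmo and a digit. The rule used symbols and no measured value, and it took 88 of the 55681 non-control probes, or 72 of the 24336 gene symbols. By family these were 20 aldehyde dehydrogenase (Aldh), 19 carboxylesterase (Ces), 17 aldo-keto reductase (Akr), 7 flavin-containing monooxygenase (Fmo), 5 alcohol dehydrogenase (Adh) and 4 aldehyde oxidase (Aox) genes. To be tested in a comparison, a probe had to be well above background on 3 or more arrays of either compared group, and 62 of the 72 genes passed this filter in each comparison. The probe with the highest mean signal stood for its gene, and 49 genes were well above background on all 15 arrays.

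RNA of whole carcinoma tissue was hybridised to 1-colour Agilent mouse arrays, with 1 array per tumor. The 15 tumors were 5 hepatocellular carcinomas (HCC) of p53f/f control mice, 5 HCC of p53LKO mice and 5 tumors of p53LKO mice labelled ICC, intrahepatic cholangiocarcinoma. In p53LKO mice Trp53 was deleted in the liver from floxed alleles, which the p53f/f controls carried without deletion, and the name of the Cre driver was not given in the sources used here. All mice were C57BL/6J. According to the study's legend the HCC came from males. It names no sex for the tumors labelled ICC, and no age at sampling for single tumors. The paper reports that tumors formed with a significant delay in p53f/f mice. Age may therefore differ between the HCC groups, and it cannot be told apart from genotype here. Mice of all 3 groups received CCl4, a hepatotoxin, at 0.5 µl per g body weight in olive oil into the peritoneum over 16 weeks, so none of the groups shows untreated liver or liver without a tumor. Mouse 3717 gave 2 of the p53f/f HCC, and 4 of the p53LKO mice gave both an HCC and an ICC. Values of single arrays are log2 levels relative to the 75th percentile of the array. They are given in the order 3681 T1, 3715 T2, 3716 T1, 3717 T1 and 3717 T2 for p53f/f HCC, 3976 T1, 5283 T7, 3731 T2, 3733 T1 and 3975 T4 for p53LKO HCC, and 3731 T3, 3733 T3, 3976 T8, 3977 T5 and 5283 T20 for ICC.

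As background, alcohol dehydrogenases oxidise alcohols such as ethanol and retinol to aldehydes, and aldehyde dehydrogenases and aldehyde oxidases carry aldehydes on to acids. Aldo-keto reductases work in the opposite direction and reduce aldehydes and ketones, steroids included, while carboxylesterases split esters of lipids and drugs and flavin-containing monooxygenases oxidise nitrogen and sulfur in drugs and diet amines. Hepatocytes are a main site of most of these enzymes, and bile duct cells hold less of them.

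The labels were checked first. The Trp53 probe read -1.27 to -0.68 (median -1.07) in p53f/f HCC, -3.86 to -2.75 (median -2.86) in p53LKO HCC and -4.19 to -2.31 (median -2.98) in ICC. The deletion groups thus lay below the controls without overlap, by 2.08 ± 0.24 (SE) on the log2 scale between the HCC groups (limma, adjusted p = 0.000166). The files place this probe on mm9 chromosome 17, away from the Trp53 locus, so it is a weak check of the deletion. All 12 hepatocyte markers were well above background on every array, also in ICC. There, 6 of 12 were called lower than in p53LKO HCC, and all 12 were fitted below 0. Of the bile duct markers, Epcam was well above background on no p53LKO HCC array and at least 94.0-fold higher in ICC (limma, adjusted p = 1.76e-05). Krt19 was 4.67 ± 0.62 (SE, limma, adjusted p = 0.000304) higher in ICC on the log2 scale, and 4 of the 8 tested bile duct markers were called higher. The arrays lay in 2 rows on each of 2 slides, with all p53f/f HCC in upper rows and all ICC in lower rows, with 2 p53LKO HCC in a lower and 3 in an upper row. Probes well above background made up 55.1% to 70.1% of an array in the upper rows and 37.0% to 47.0% in the lower rows, and 69.3% to 89.8% of the enzyme probes over all arrays.

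The first comparison asked how HCC without p53 differed from HCC of control mice. Few enzymes differed. Calls needed an adjusted p under 0.05 together with a fold over 2. By this rule 4 of the 62 tested genes were called higher in p53LKO HCC, Aldh18a1, Aldh3b1, Aldh3b2 and Ces1a, beside 5.19% of all genes tested. Another 2 were called lower, among them Adh6a, beside 10.8% of all genes, and 16% of all genes were called in either direction. The median log2 difference was 0.25 over the 62 genes and 0.06 over all genes tested. Only 1 gene was higher without overlap between the groups (8.18% of all genes were) and 2 were lower without overlap (11.3% of all genes). In HCC arrays of the upper rows alone, 5 against 3, there were 3 called higher and 1 lower, beside 4.52% and 10.8% of all genes. On slide 1 alone, 4 against 2, 0 were called by limma, beside 2.06% higher and 7.35% lower over all genes. Scaled to the spike-in probes, which raised the median of all genes to 0.80, 27 enzyme genes were called higher and 0 lower, where 35.0% of all genes were called higher and 4.4% lower. Scaled to the probes above background on all arrays, 4 were called higher and 4 lower, beside 2.46% and 15.2% of all genes. The differences below are therefore relative to the 75th percentile of each array. Of the cell type markers, 2 of 12 for hepatocytes were called lower, with a mean level of 6.42 to 7.34 in p53f/f HCC and 6.04 to 6.47 in p53LKO HCC. Endothelial markers had 2 of 7, adipocyte markers 2 of 5, stomach markers 2 of 6 and pancreatic acinar markers 1 of 6 called lower. Stellate cell and fibroblast markers had 1 of 10 called higher and 0 lower, with a median difference of 0.86, and 3 of 10 higher at an unadjusted p under 0.05. The part of the cell makeup in the results was not tested.

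Among the genes higher in p53LKO HCC, Aldh18a1 makes a precursor in proline synthesis. It read -3.64, -0.44, -1.53, -2.81 and -2.66 in p53f/f HCC and -0.47, -0.11, -0.73, -0.24 and 0.50 in p53LKO HCC. The control tumor 3715 T2 lay among the p53LKO HCC and the other 4 controls lay below them. The fitted difference was 2.0 ± 0.52 (SE, limma, adjusted p = 0.0137), or 4.01-fold. Aldh3b1, which oxidises lipid-derived aldehydes, read 1.14, 3.59, 2.95, 1.28 and 1.04 in p53f/f HCC and 3.55, 3.64, 3.91, 3.77 and 4.94 in p53LKO HCC. The groups overlapped again only through tumor 3715 T2, and the difference was 1.96 ± 0.52 (SE, limma, adjusted p = 0.0143). Aldh3b2 and Ces1a fell outside the rule for named genes and were picked after their values were seen. Aldh3b2 was well above background on none of the p53f/f arrays and 3 p53LKO arrays, at least 2.15-fold higher in p53LKO HCC (limma, adjusted p = 0.0175). Ces1a rose by 2.28 ± 0.70 (SE, limma, adjusted p = 0.029), a call that was lost when any of 6 single tumors was left out.

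Tumors 3715 T2 and 3716 T1 stood apart from the other p53f/f HCC in several members, which is described here after the values were seen and without a test. Ces1g, a triglyceride hydrolase, read 5.41 and 4.86 in these tumors and 1.5 to 3.25 in the other 3, against 4.50 to 5.78 in p53LKO HCC. Aldh1a1, a retinaldehyde dehydrogenase, read 8.23 and 7.33 against 4.77 to 5.92. Aldh3a2, the fatty aldehyde dehydrogenase, read 3.53 and 2.90 against 1.02 to 1.63, and Ces3a read 7.63 and 7.14 against 0.81 to 5.66. The order was opposite for Akr1c18, which inactivates progesterone and read -2.03 and -2.16 in these tumors against 4.95 to 6.01 in the other controls. Without tumor 3715 T2, 8 genes were called higher in p53LKO HCC, beside 6.64% of all genes, and the 4 added were Aldh1a1 (1.59), Aldh1a7 (1.95), Ces1g (2.16) and Ces1h (1.47), each a log2 difference. Without the p53LKO tumor 3733 T1, 2 were called higher, beside 4.54% of all genes.

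Lower values in p53LKO HCC were found among the alcohol dehydrogenases. Adh6a was called lower (-2.54 ± 0.84 SE, limma, adjusted p = 0.0382), a size that rests mostly on dim readings, since it was well above background on 4 control arrays and 1 p53LKO array. Leaving out 3717 T2, 3733 T1 or 3975 T4 left 0 enzyme genes called lower, beside 9.71%, 10.6% and 10.3% of all genes.

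The other alcohol dehydrogenases were not called. Adh5, the glutathione-dependent formaldehyde dehydrogenase, read -1.18 to -0.79 in p53f/f HCC and -2.35 to -1.27 in p53LKO HCC. The ranges were separate, and the difference was -0.74 ± 0.21 (SE, limma, adjusted p = 0.0209), under the fold limit. The main liver enzyme of ethanol oxidation, Adh1, differed by -0.40 ± 0.25 (SE, limma, adjusted p = 0.239), Adh4 by -1.72 ± 0.71 (adjusted p = 0.0849) and Adh7 by -0.51 ± 0.39 (adjusted p = 0.334). Thus all 5 Adh genes were fitted below 0, but scaled to the spike-in probes Adh1 (0.34) and Adh7 (0.22) turned above 0. Aldh3a1, an oxidase of aromatic and lipid aldehydes, was the 1 gene higher without overlap, with 1.86 to 2.46 in p53f/f HCC and 2.49 to 3.23 in p53LKO HCC, a difference of 0.70 ± 0.19 (SE, limma, adjusted p = 0.0165) that stayed under the fold limit. A second, overlapping Aldh3a1 probe was well above background on 0 p53f/f and 1 p53LKO HCC arrays. It was not tested in this comparison. Of the 15 tested Akr genes 0 were called in limma, with 1 at an unadjusted p under 0.05, and of the 2 tested Aox genes 0, with 1 at an unadjusted p under 0.05. That unadjusted limit was passed by 7 of 20 Aldh and 6 of 15 Ces genes, all higher, and by 3 of 5 Adh and 1 of 5 Fmo genes, all lower. It was also passed by 41.1% of all genes tested, 20.7% higher and 20.4% lower in p53LKO HCC.

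**Figure D1:**
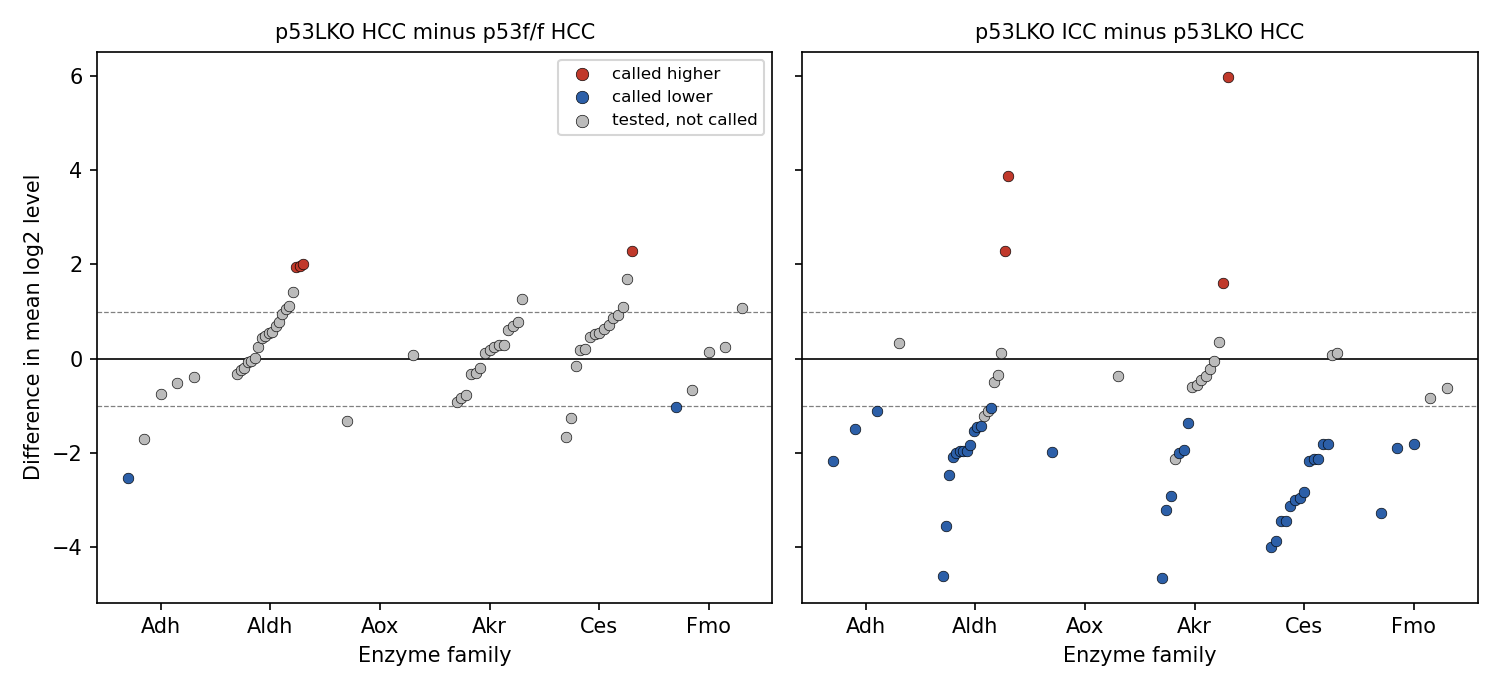
Differences in mean log2 level for each tested gene by enzyme family, with 1 point per gene, p53LKO HCC minus p53f/f HCC on the left and p53LKO ICC minus p53LKO HCC on the right, dashed lines at a fold change of 2 and colours for the call. On the left 4 genes are called higher and 2 lower, and on the right 4 are called higher and 39 lower.

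The second comparison set ICC against HCC of the same genotype, and shares its p53LKO HCC arrays with the first, so that the 2 sets of differences are not independent. Most enzymes were lower in ICC. Of 62 tested genes, 39 (62.9%) were called lower, against 15.2% of all genes tested, and 4 were called higher, against 13.2%, where 28.4% of all genes were called in either direction. Without overlap between the groups, 31 genes were lower (19.9% of all genes) and 3 were higher (10.9% of all genes). The median log2 difference was -1.82 over the enzymes and -0.17 over all genes tested. By family, 13 of 15 tested Ces genes were called lower, 13 of 20 Aldh, 3 of 4 Adh, 3 of 5 Fmo, 6 of 16 Akr and 1 of 2 Aox. In the lower rows alone, 2 HCC against 5 ICC, there were 26 lower and 4 higher, and Adh1, Adh5, Akr1c14, Aldh18a1, Aldh4a1, Aldh8a1, Ces1b, Ces1c, Ces1d, Ces1e and Fmo5 lost the call. On slide 2 alone, 3 against 4, there were 31 lower and 3 higher. With the mouse as a replicate block 35 were lower and 3 higher. Of all genes, 13.7%, 15% and 13.7% were called lower in these 3 fits. Scaled to the probes above background on all arrays, where the median of all genes was 0.20, 33 were lower and 4 higher, while over all genes the called shares moved to 8.27% lower and 19.2% higher.

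The hepatocyte markers, of which 6 of 12 were called lower, and the enzymes were low on the same ICC arrays. The mean log2 level of the markers was 6.04 to 6.47 in p53LKO HCC and 5.84, 3.31, 4.79, 5.91 and 4.83 in ICC. The mean over the tested enzyme genes was 2.42 to 3.16 in p53LKO HCC and 2.03, 0.45, 1.54, 1.95 and 1.34 in ICC. Tumor 3733 T3 was thus lowest and tumors 3731 T3 and 3977 T5 were highest in both. The mean level of the bile duct markers was -2.97 to -1.60 in p53LKO HCC and -0.07 to 0.21 in ICC. Stellate cell and fibroblast markers were called higher in 6 of 10 cases, with a mean level of 1.10 to 2.87 in p53LKO HCC and 2.67 to 3.75 in ICC. Macrophage and endothelial markers gave 0 calls among 7 tested each (limma, 1 each at an unadjusted p under 0.05, which 21.3% of all genes passed as higher and 33.7% as lower, 55% in all), and 3 of 6 lymphocyte markers were called higher. In such bulk tissue, fewer hepatocytes and less of these RNAs per hepatocyte cannot be told apart, and the part of the cell makeup in the results was not tested. The median difference was -1.5 for the 12 hepatocyte markers and -1.82 for the enzymes.

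**Figure D2:**
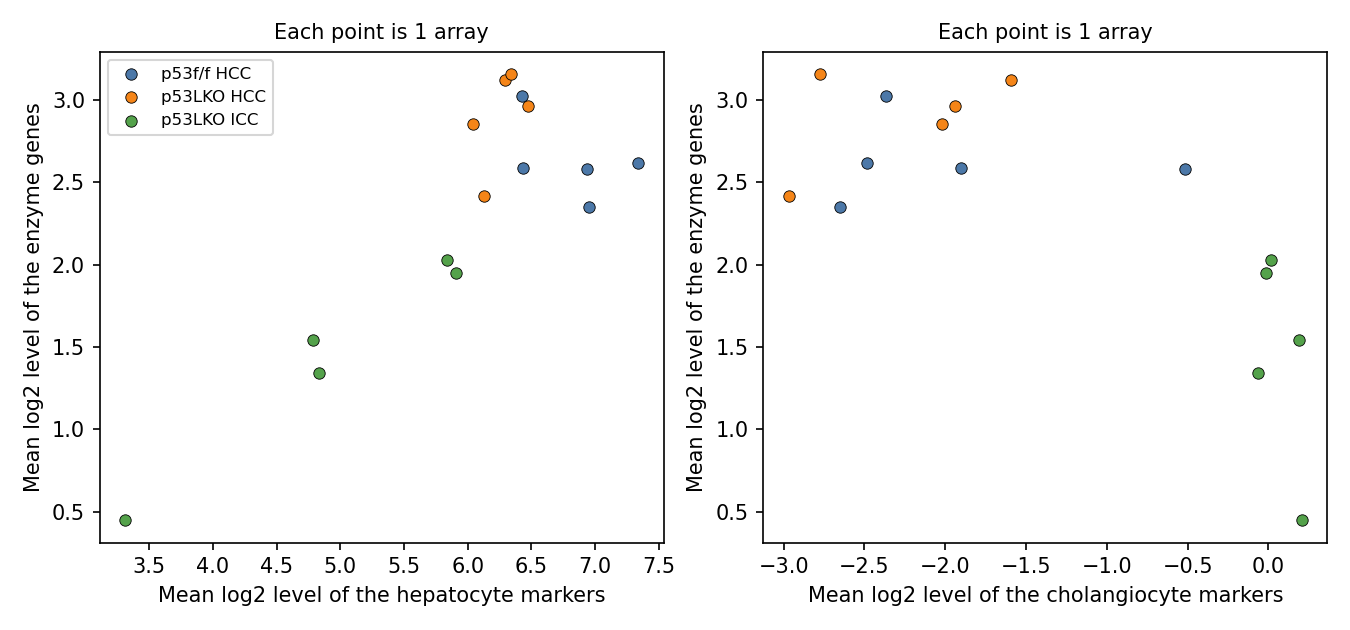
Mean log2 level of the tested enzyme genes on each array (y axis) against the mean log2 level of 12 hepatocyte markers (left) or 9 bile duct markers (right), with 1 point per array coloured by group. The 5 ICC arrays lie at 0.45 to 2.03 on the y axis, under all HCC arrays, and their hepatocyte marker means run from 3.31 to 5.91.

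Carboxylesterases had the highest share of called genes among the 6 families, with all 8 tested Ces1 genes (median -2.58) and all 5 tested Ces2 genes (median -3.45) called lower in ICC. The Ces2 enzymes act on drugs and acylglycerols in liver and gut. Ces2e read 7.09, 6.46, 6.36, 7.0 and 6.99 in p53LKO HCC and 4.08, 1.10, 2.61, 3.11 and 2.96 in ICC. Ces2b read 5.85, 5.26, 5.76, 5.77 and 5.03 in p53LKO HCC and 2.52, 0.93, 1.46, 1.79 and 1.59 in ICC. The groups were separated by more than 2 log2 units in both genes, and tumor 3733 T3 was the lowest ICC. The differences were -4.01 ± 0.45 (SE, limma, adjusted p = 0.000127), or 16.1-fold, for Ces2e and -3.88 ± 0.29 (SE, limma, adjusted p = 1.35e-05), or 14.7-fold, for Ces2b. Ces2c (-3.45), Ces2a (-2.83) and Ces2g (-2.13) followed, and all 3 Ces2c and both Ces2e probes were called lower. In p53f/f HCC, Ces2e read 8.00, 6.34, 5.76, 7.20 and 7.42 and Ces2b read 5.72, 5.43, 4.42, 4.93 and 4.6, overlapping p53LKO HCC.

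The Ces2 probes lie in a row on mm9 chromosome 8, between 107265289 (Ces2a) and 107544310 (Ces2h), and are followed by Ces3a at 107582236 and Ces3b at 107615484. To show what the promoters of these neighbours share, the windows of 4 Ces2 genes are printed from RefSeq (build GRCm38.p6, 250 bases before to 50 after the start, plus strand), chr8:104733753-104734052 for Ces2a, chr8:104846818-104847117 for Ces2c, chr8:104926010-104926309 for Ces2e and chr8:104961468-104961767 for Ces2g. Capitals mark the letters GAACTTT, chosen after the windows were seen and searched on both strands. They begin 72, 74 and 82 bases before the start in Ces2a, Ces2c and Ces2e, and Ces2g holds none.
Ces2a: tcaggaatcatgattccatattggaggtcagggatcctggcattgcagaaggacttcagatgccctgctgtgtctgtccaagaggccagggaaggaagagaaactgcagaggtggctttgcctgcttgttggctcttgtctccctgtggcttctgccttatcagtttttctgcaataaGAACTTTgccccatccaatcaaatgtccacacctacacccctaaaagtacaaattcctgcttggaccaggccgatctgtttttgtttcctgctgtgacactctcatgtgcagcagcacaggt
Ces2c: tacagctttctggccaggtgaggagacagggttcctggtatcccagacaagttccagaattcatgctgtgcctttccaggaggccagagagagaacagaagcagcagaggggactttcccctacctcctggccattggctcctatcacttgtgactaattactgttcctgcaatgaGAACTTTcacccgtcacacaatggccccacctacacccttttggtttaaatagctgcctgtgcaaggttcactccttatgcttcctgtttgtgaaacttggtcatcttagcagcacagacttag
Ces2e: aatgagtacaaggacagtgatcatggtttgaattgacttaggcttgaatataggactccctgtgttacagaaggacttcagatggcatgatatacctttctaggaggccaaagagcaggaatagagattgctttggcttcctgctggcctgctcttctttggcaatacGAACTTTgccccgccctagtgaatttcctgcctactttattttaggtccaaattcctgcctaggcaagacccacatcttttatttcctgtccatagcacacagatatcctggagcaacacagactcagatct
Ces2g: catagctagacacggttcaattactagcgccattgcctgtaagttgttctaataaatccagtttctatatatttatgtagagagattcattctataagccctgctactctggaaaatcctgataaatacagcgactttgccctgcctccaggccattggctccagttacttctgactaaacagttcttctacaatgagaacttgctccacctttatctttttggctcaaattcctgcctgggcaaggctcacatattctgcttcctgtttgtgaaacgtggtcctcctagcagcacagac
The letters stood in 3 of 6 Ces2 windows, in 4 of the 63 windows matched to 58 of the 72 enzyme genes (6.35%) and in 3.82% of all 32851 windows. Ces2g was called lower too (-2.13 ± 0.27 SE, limma, adjusted p = 0.000241), as were all 5 tested Ces2 genes. TGANNNNGC, a loose form of the core of the antioxidant response element, stood in 41.3% of the enzyme windows and in 41.3% of all windows. A pattern this frequent cannot show whether the windows hold the element.

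Of the Ces1 genes, which hydrolyse triglycerides and many ester drugs, Ces1g read 5.32, 5.41, 4.50, 5.78 and 5.14 in p53LKO HCC and 2.43, -0.17, 2.13, 2.69 and 1.75 in ICC. No ICC reached the HCC range, and the difference was -3.46 ± 0.48 (SE, limma, adjusted p = 0.000395). Its p53f/f values of 1.5, 5.41, 4.86, 3.25 and 2.68 reached into the ICC range. Ces1a and Ces1h were well above background on no ICC array and on all p53LKO HCC arrays, at least 2.08-fold and at least 3.27-fold lower in ICC. Ces1f fell by 3.01 ± 0.58, Ces1d by 2.19 ± 0.59 and Ces1e by 2.14 ± 0.59 (log2, SE, limma, adjusted p = 0.0023, 0.0128 and 0.0137). Ces1b (-1.81, adjusted p = 0.0331, or 0.0537 with the mouse as a replicate block) and Ces1c (-1.82, adjusted p = 0.0303) overlapped between the groups, and these 4 genes Ces1b, Ces1c, Ces1d and Ces1e lost the call both in the lower rows alone and on slide 2 alone. Near-identical paralogs can share a probe's signal, which was not tested.

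Ces3a and Ces3b stood outside this pattern. Ces3a read 4.50, 4.72, 4.80, 4.45 and 1.68 in p53LKO HCC and 5.0, 3.1, 4.48, 4.45 and 3.77 in ICC, a difference of 0.13 ± 0.59 (SE, limma, adjusted p = 0.875). Ces3b differed by 0.07 ± 0.63 (SE, limma, adjusted p = 0.935). The groups overlapped in both, and tumor 3975 T4 was the lowest p53LKO HCC in both. Among the p53f/f HCC, Ces3a ran from 0.81 to 7.63, and its difference between the HCC groups was -1.26 ± 1.15 (SE, limma, adjusted p = 0.424). Ces2f, Ces2h, Ces4a and Ces5a did not pass the filter in either comparison.

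**Figure D3:**
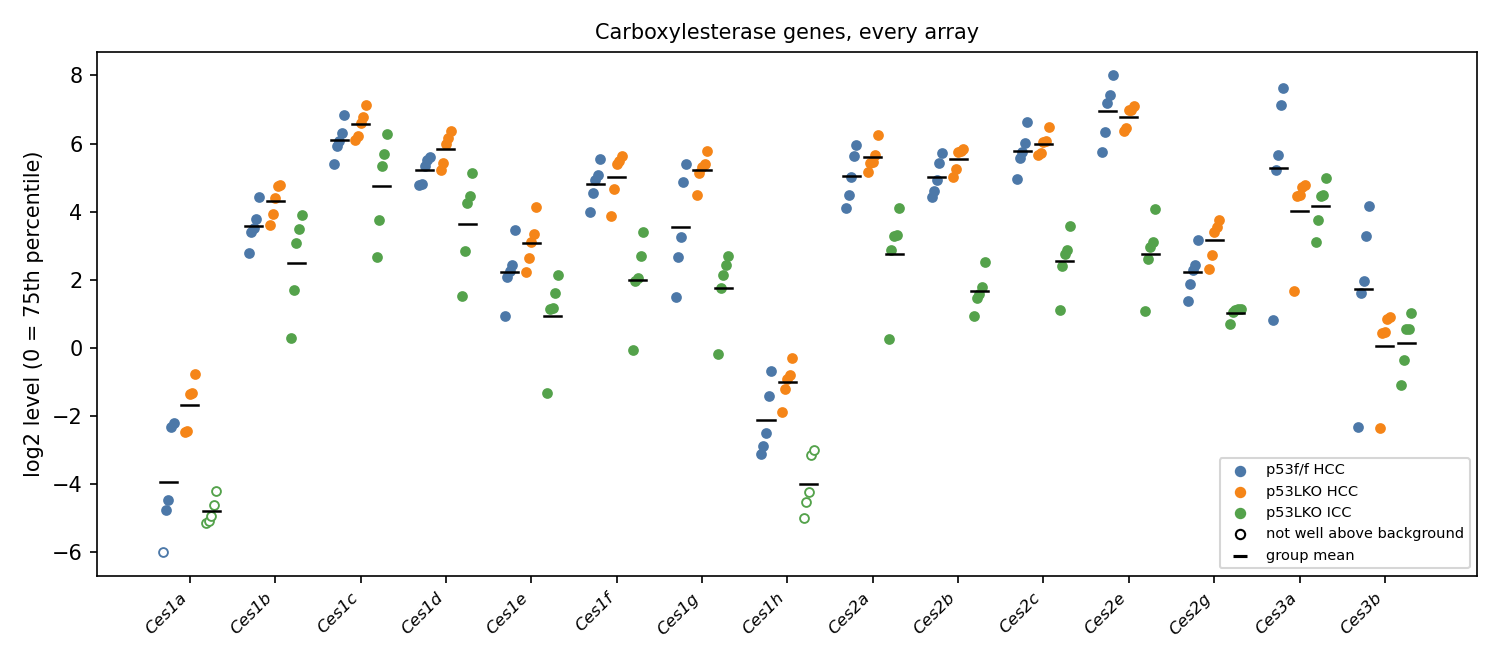
Log2 level of each tested Ces1, Ces2 and Ces3 gene (x axis) on every array, relative to the 75th percentile of the array, with 5 points per group, open points for arrays not well above background and bars for group means. ICC points lie under most or all p53LKO HCC points in the Ces1 and Ces2 genes and among them in Ces3a and Ces3b.

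Among the aldehyde dehydrogenases, the largest fall in ICC was that of Aldh1b1, a mitochondrial enzyme that oxidises acetaldehyde. It read 5.24, 4.45, 4.98, 4.80 and 4.16 in p53LKO HCC and 1.72, -1.53, -0.53, 0.33 and 0.56 in ICC, after 4.24, 4.67, 3.58, 4.25 and 2.96 in p53f/f HCC. All ICC lay below all HCC, and the difference from p53LKO HCC was -4.61 ± 0.51 (SE, limma, adjusted p = 0.000114), or 24.5-fold. Aldh1a7, a close relative of Aldh1a1, read 6.19, 7.05, 6.38, 7.40 and 6.82 in p53LKO HCC and 4.87, 1.44, 3.29, 4.10 and 2.35 in ICC. It differed by -3.56 ± 0.57 (SE, limma, adjusted p = 0.00079) without overlap, and its p53f/f values of 5.48, 7.49, 6.70, 2.89 and 4.2 spanned both ranges. Aldh1a1 itself fell by 2.48 ± 0.42 (adjusted p = 0.0011) and Aldh2, the main mitochondrial acetaldehyde dehydrogenase, by 2.10 ± 0.38 (adjusted p = 0.00156) on the log2 scale.

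Other dehydrogenases were called lower as well. Aldh5a1 of GABA breakdown (-2.01), Aldh7a1 of lysine breakdown (-1.97), Aldh8a1 of retinal and kynurenine metabolism (-1.97), Aldh9a1 of carnitine synthesis (-1.84), Aldh1l1 of folate metabolism (-1.54) and Aldh4a1 of proline breakdown (-1.43) were called lower, with adjusted p of 0.000534 to 0.0271 in limma. Aldh6a1 of valine breakdown was not called (-1.22 ± 0.50, adjusted p = 0.0666), nor were Aldh3a2 (-0.51, adjusted p = 0.197) and Aldh1l2, a further folate dehydrogenase, which was well above background on no ICC array (adjusted p = 0.0801). Aldh3b1 and Aldh18a1, higher in p53LKO than in p53f/f HCC, were called lower in ICC than in p53LKO HCC. Aldh3b1 read 1.73, 1.95, 2.26, 1.41 and 2.62 in ICC, all below p53LKO HCC, a difference of -1.97 ± 0.30 (SE, limma, adjusted p = 0.000677). Aldh18a1 read -1.58, -1.18, -1.17, -1.80 and -0.55 in ICC, overlapping p53LKO HCC, and differed by -1.05 ± 0.28 (SE, limma, adjusted p = 0.0122), but by -0.73 with the mouse as a replicate block, under the fold limit. Aldh3b2 was well above background on 3 p53LKO HCC arrays and no ICC array, and no bound on its fold could be given. One of its probes was called lower (limma, adjusted p = 0.00236) and the other was not (adjusted p = 0.11). Since p53LKO HCC stands in both comparisons, opposite signs here rest partly on the same arrays.

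**Figure D4:**
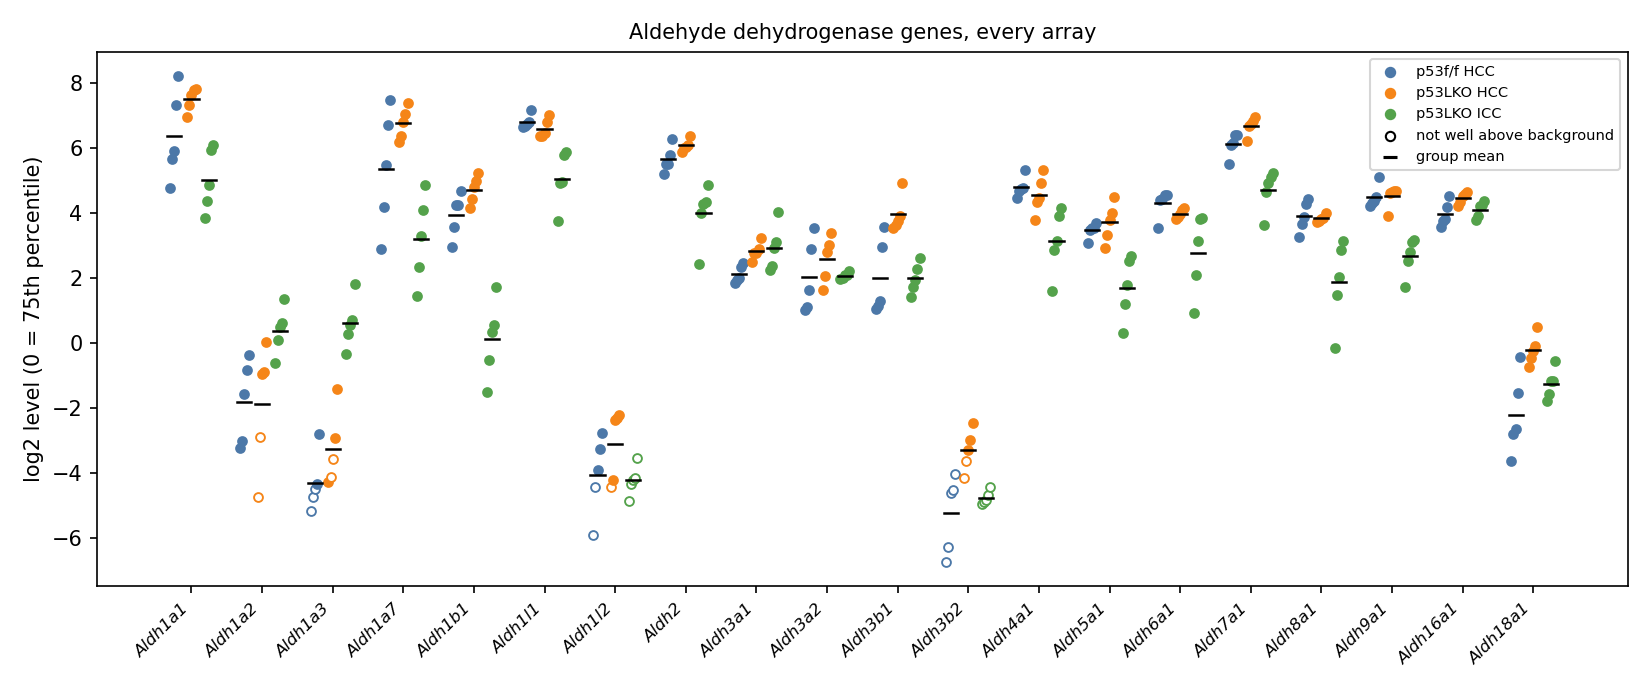
Log2 level of the 20 aldehyde dehydrogenase genes (x axis) on every array, relative to the 75th percentile of the array, with 5 points per group, open points for arrays not well above background and bars for group means. Aldh1b1 shows ICC between -1.53 and 1.72 and p53LKO HCC between 4.16 and 5.24, while Aldh1a2 and Aldh1a3 run the other way.

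The 2 remaining retinaldehyde dehydrogenases, which make retinoic acid, rose in ICC. Aldh1a3 read -4.15, -3.59, -2.92, -4.28 and -1.43 in p53LKO HCC, where 3 arrays were well above background, and -0.34, 1.83, 0.54, 0.28 and 0.71 in ICC, where all were. HCC and ICC were separated, and the difference was 3.88 ± 0.55 (SE, limma, adjusted p = 0.00043), or 14.7-fold. The p53f/f HCC lay at -5.19, -2.80, -4.51, -4.75 and -4.36. Aldh1a2 rose by 2.28 ± 0.79 (SE, limma, adjusted p = 0.0369). It read -4.76 to 0.04 in p53LKO HCC, where 3 arrays were well above background, and -0.62 to 1.35 in ICC. It kept the call in 14 of 25 alternatives. The alternatives that took the call included slide 2 alone, the row as a block and the mouse as a replicate block. Thus 1 member of this group of enzymes, Aldh1a1, was lower and the other two were higher.

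Akr1cl and Akr1b8 were the aldo-keto reductases called higher in ICC. Akr1cl, a gene of little known function, read -0.63, 0.62, -1.16, -0.72 and 0.55 in ICC. Its probe was well above background on none of the 10 HCC arrays, where it read -7.27 to -4.34 in p53LKO HCC and -7.23 to -5.89 in p53f/f HCC. ICC was at least 16.4-fold above p53LKO HCC (limma, adjusted p = 7.44e-05). Akr1b8, a reductase of lipid-derived aldehydes, read 3.45, 3.70, 3.68, 3.34 and 3.17 in ICC and 2.14, 1.5, 3.15, 0.88 and 1.65 in p53LKO HCC, with 2.31, 1.2, 2.68, 2.26 and 2.40 in p53f/f HCC. Every ICC lay above every HCC, though tumor 3731 T2 came close, and the difference was 1.61 ± 0.36 (SE, limma, adjusted p = 0.00485).

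The probes of Aldh3a1 disagreed. They are 60 bases long, lie at mm9 chr11:61031857-61031916 and chr11:61031864-61031923 on the plus strand, and share 53 bases, with CCTCCCC found in the first alone and AAAAGTC in the second alone. The first, brighter probe read 3.23, 2.49, 2.76, 2.76 and 2.88 in p53LKO HCC and 2.25, 3.1, 2.94, 2.38 and 4.03 in ICC, a difference of 0.11 ± 0.31 (SE, limma, adjusted p = 0.785). The second read -5.36, -4.33, -5.45, -4.54 and -6.51 in p53LKO HCC, where 1 array was well above background, and 1.23, 2.67, 2.09, 1.23 and 3.46 in ICC, where all were. It was called higher in ICC (limma, adjusted p = 7.79e-06), and the size of the change is not given because most HCC readings were not well above background. The order of the ICC arrays was nearly shared, with tumor 5283 T20 highest on both, and which probe follows the Aldh3a1 transcript was not tested.

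**Figure D5:**
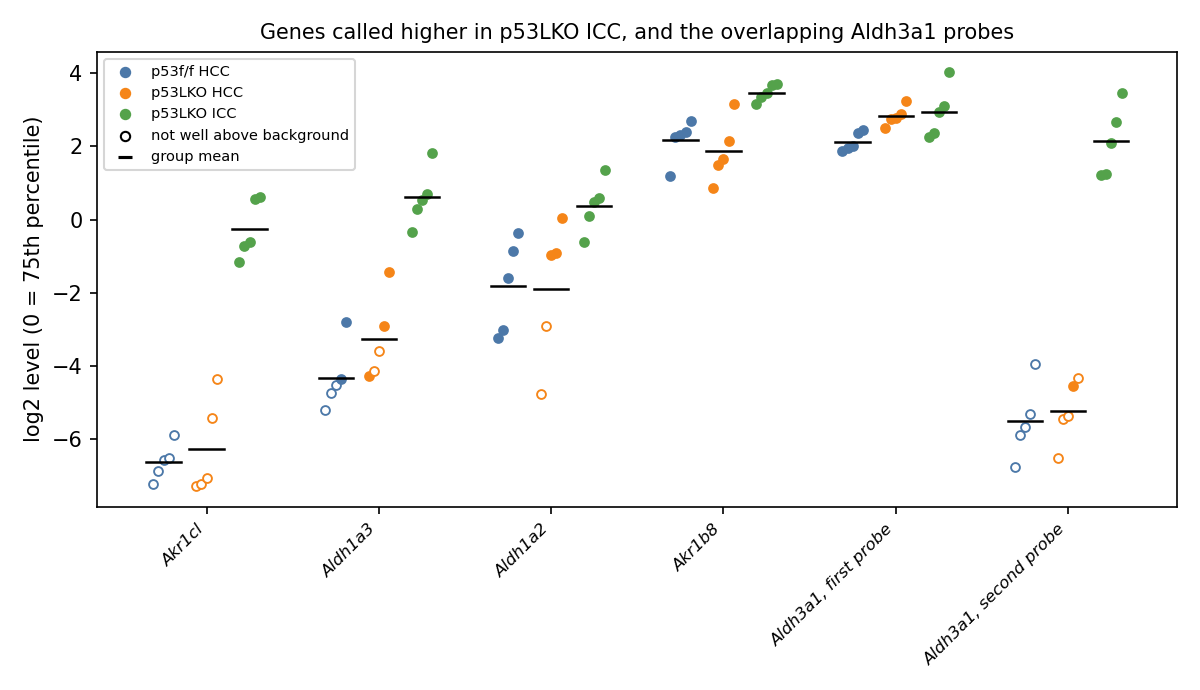
Log2 level on every array, relative to the 75th percentile of the array, for the 4 genes called higher in ICC and for the overlapping probes of Aldh3a1, with 5 points per group, open points for arrays not well above background and bars for group means. The first Aldh3a1 probe lies at 1.86 to 2.46 in p53f/f HCC, 2.49 to 3.23 in p53LKO HCC and 2.25 to 4.03 in ICC, and the second lies at 1.23 to 3.46 in ICC and at -3.96 or below in all HCC.

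Among the other aldo-keto reductases, Akr1c18 showed the largest fall of all members with 1 probe per gene, close to that of Aldh1b1 (-4.61). The second Ces2e probe fell further (-4.82). Akr1c18 read 4.51, 1.57, 3.47, 4.27 and -0.25 in p53LKO HCC and -1.25, -2.74, -2.03, -1.71 and -1.99 in ICC. ICC and p53LKO HCC did not overlap, although the p53f/f HCC, at 6.01, -2.03, -2.16, 4.95 and 5.39, held tumors at both ends. The difference was -4.66 ± 0.81 (SE, limma, adjusted p = 0.00125), or 25.2-fold. The probes of the Akr1c genes follow each other on mm9 chromosome 13. Akr1c14 (4089324), Akr1c18 (4131895), Akr1c13 (4204668) and Akr1c19 (4247522) were called lower, with log2 differences of -1.94, -4.66, -1.37 and -2.92, and further along Akr1c12 (4272198), Akr1c6 (4456428) and Akr1c20 (4486408) were not called, at -0.56, -0.21 and -0.45. These enzymes act on steroids and other ketones, and Akr1c6 makes testosterone.

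Akr1d1, a steroid reductase of bile acid synthesis, fell by 3.23 ± 0.67 (adjusted p = 0.00331) and Akr7a5, which reduces aflatoxin aldehydes, by 2.01 ± 0.25 (adjusted p = 0.000207) on the log2 scale. Akr1b3, the aldose reductase of the polyol pathway, gave -0.60 ± 0.24 (adjusted p = 0.0592), Akr1b7 gave -2.13 ± 0.82 (adjusted p = 0.0546), Akr1b10 gave 0.36 ± 0.31 (adjusted p = 0.369) and Akr1a1, the general aldehyde reductase, gave -0.38 ± 0.15 (adjusted p = 0.0623), each not called in limma. Akr1a1 read 5.83 to 6.13 in p53LKO HCC and 5.44 to 5.97 in ICC, so the groups touched at their ends.

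In the alcohol dehydrogenases, Adh1 read 7.51 to 8.44 in p53LKO HCC and 5.22 to 7.03 in ICC without overlap, a difference of -1.5 ± 0.34 (SE, limma, adjusted p = 0.00528). Adh5 was called lower (-1.11 ± 0.38, adjusted p = 0.033), but kept the call in 11 of 25 alternatives and lost it with the mouse as a replicate block (adjusted p = 0.0883). Adh7, an enzyme of retinol oxidation, was well above background on no ICC array and at least 1.07-fold lower (adjusted p = 0.00274). Adh4 was not called (0.34 ± 0.86, adjusted p = 0.768), with p53LKO HCC from -0.13 to 4.06 and ICC from 0.31 to 3.94. Of the aldehyde oxidases, Aox1 fell by 1.98 ± 0.36 (SE, limma, adjusted p = 0.00164) and Aox3 was not called (-0.37 ± 0.69, adjusted p = 0.682). Aox2 and Aox4 did not pass the filter.

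Of the flavin-containing monooxygenases, Fmo4 was well above background on all p53LKO HCC arrays and no ICC array, at least 3.23-fold lower in ICC (limma, adjusted p = 0.00019). Fmo1 fell by 1.90 ± 0.49 (adjusted p = 0.0102) and Fmo5, which inserts oxygen into ketones, by 1.82 ± 0.52 (adjusted p = 0.0159) on the log2 scale, the last with all 3 probes called lower. Fmo5 lost the call with the mouse as a replicate block (adjusted p = 0.0667). Fmo2 was not called (-0.83 ± 0.38, adjusted p = 0.0924).

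Genes that act beside these families were read from hand-written lists. Of other alcohol and carbonyl oxidoreductases, 10 of 16 tested were called lower in ICC and 0 higher (median -1.67), beside 15.2% lower and 13.2% higher over all genes, and they included the carbonyl reductases Cbr1 (-3.83) and Cbr3 (-4.48) and Hsd11b1 (-3.63), which regenerates glucocorticoid. Of other ester hydrolases 7 of 16 were called lower and 0 higher, such as Ephx1 (-2.97), the microsomal epoxide hydrolase. Of molybdenum enzymes and their cofactor genes, 4 of 9 were called lower and 0 higher, with Mocos, which activates aldehyde oxidases, at -2.0. Among genes of retinoid metabolism 8 of 22 were called lower and 3 higher. Those called higher were Stra6, a retinol transporter well above background on no p53LKO HCC array (at least 69.3-fold), Crabp2, which carries retinoic acid (log2 difference 1.82), and its receptor Rarb (1.12). In p53LKO against p53f/f HCC, these lists had 1 of 17, 0 of 16, 0 of 9 and 1 of 21 genes called lower and 0 called higher in limma, beside 10.8% and 5.19% of all genes. At an unadjusted p under 0.05 they had 4, 1, 2 and 7 genes of either direction, and 41.1% of all genes passed that limit.

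Among regulators of the enzymes, 7 of 14 were called lower in ICC and 1 higher (median -1.07), with Nr1i2, the pregnane X receptor, at -3.07, Ppara at -2.48, Hnf4a at -2.03 and the higher Ahr at 2.05. Nfe2l2, which encodes Nrf2, was not called (-0.39, limma, adjusted p = 0.142). Of its target genes outside the families 7 of 10 were called lower and 0 higher (median -2.06), such as Nqo1 (-3.23). Over all genes, 15.2% were called lower and 13.2% higher in ICC. Between the HCC groups 0 of the 10 Nrf2 target genes were called in limma in either direction, with 0 at an unadjusted p under 0.05, beside 16% and 41.1% of all genes.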

How the data were processed

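Gene expression was measured in 15 tumors by 1-colour arrays. The authors deposited Feature Extraction 10.7.3.1 output, in which the processed signal is a background-subtracted intensity, together with a table of log2 values. Per the file headers, other columns used hold spot flags and gene names. The deposited table followed the log2 scanner values after centring per probe (lowest correlation 0.99989) and served as an alternative. Its centring leaves the absolute level unknown, and its medians per array ran from -0.33 to 0.34.

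In R 4.3.3, 2339 spots with an outlier flag (7 of enzyme probes) were left out, log2 signals were averaged per probe, and the 75th percentile of the array was subtracted. Each comparison used its own 10 arrays in limma 3.58.1, with Benjamini-Hochberg adjustment over all tested probes, and calls needed an adjusted p under 0.05 together with a fold over 2. Where no array of a group was well above background, the fold change is a bound against the lowest signal well above background per array. Probe positions are mm9, and promoters are from RefSeq tables of GRCm38.p6. Figures were drawn with matplotlib 3.10.9 in Python 3.11.15.

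Members, lists and tests were chosen with earlier results of these data known. Named are the genes of a hand-written list of the families, per comparison and direction the 6 called genes with the largest change and no overlap, and genes with probes called in opposite directions, of which there were 0. Mouse numbers were read from the sample titles. HCC and ICC of the same mouse are the same animal and so are paired, and their deviations from the group means correlated by -0.14 to 0.07 (4 pairs), against -0.26 to 0.28 in the 21 other pairs. On simulated data the fit recovered 27.9%, 72.7% and 89.4% of probes changed 2-fold, 4-fold and 8-fold for the HCC comparison (36086 probes), and 38.6%, 80.4% and 93.2% for ICC against HCC (32670 probes). Recovery needed an adjusted p under 0.05 and the right sign, without the fold limit of the calls. The simulated noise was normal and independent, without slide, row or mouse effects, and few probes were changed. These rates are therefore not those of the calls reported here. Arrays have no read depth, and their number limits the precision. Separate tumors, partly of the same mouse, were the replicates. Alternatives were background correction, normalization, filters on dim probes, slide, row and mouse as blocks, thresholds, probes per gene and leaving out each tumor. Some genes that the naming rule and the lists give are not reported here.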

Additional observations from a re-analysis of the deposited data

Results flagged for a closer look

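Across 61 named genes in 3 groups, 16 of 183 sets of 5 arrays held a value set apart from the others by Dixon's ratio (critical value 0.71), and chance alone flags about 1 in 20 groups, or 9.15 here. Tumor 3975 T4 stood apart in 5 genes of p53LKO HCC. It was higher in Aldh3b1 (4.94, others 3.55 to 3.91) and lower in Aldh9a1 (3.92, others 4.61 to 4.69), Aox3 (-1.28, others 1.00 to 1.69), Ces3a (1.68, others 4.45 to 4.80) and Ces3b (-2.36, others 0.44 to 0.91). Among p53f/f HCC, tumor 3716 T1 was lower in Akr1c6 (5.53, others 7.06 to 7.52), Akr1c20 (3.71, others 5.43 to 6.0) and Aldh6a1 (3.55, others 4.42 to 4.57). Tumor 3715 T2 was lower in Akr1b8 (1.2, others 2.26 to 2.68) and higher in Aldh1l1 (7.17, others 6.66 to 6.80).

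In ICC, tumor 3733 T3 was lower in Akr7a5 (0.72, others 1.81 to 1.94) and Ces1e (-1.32, others 1.16 to 2.14), beside the lowest hepatocyte marker mean of all arrays (3.31). Tumor 3731 T3, the ICC of slide 1, was higher in Akr1c13 (4.74, others 4.02 to 4.12), and tumor 3976 T8 was lower in Ces2g (0.71, others 1.06 to 1.14). For Adh7 (-3.83, others -5.20 to -4.92) and Aox4 (-4.35, others -4.89 to -4.77) the higher value of tumor 3731 T3 was not well above background, as were none of the other ICC values.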

How the results depend on the processing

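No enzyme gene called in a comparison turned its direction under an alternative in which it was tested. The 39 genes called lower in ICC numbered 26 to 40 with 1 probe or the probe mean per gene and 46 with every probe counted. The exception was slide and row as blocks together, chosen after seeing the data. In that fit nearly all calls were lost, among the enzymes and over all genes alike. That fit rests on 2 HCC and 1 ICC arrays, and all 43 called genes kept their sign. Leaving out single tumors gave 34 to 39 lower and 3 to 4 higher. Of the 4 higher genes, 1 was left when probes had to be well above background on every array, as fewer genes were tested.

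In p53LKO against p53f/f HCC, the 4 genes called higher became 27 with spike-in scaling (35.0% of all genes), 2 with the filter on every array, 0 on slide 1 alone, 0 at an adjusted p under 0.01 and 1 with slide and row as blocks, which rests on 1 control and 3 p53LKO arrays. Without single tumors they numbered 2 to 8. Of the 6 genes called in either direction, normexp kept 3. The slide as a block, no filter on dim probes and the mean of the tumors of mouse 3717 kept 4 each. The 2 genes called lower became 4 with scaling to probes above background on all arrays and 4 without a fold limit. They became 1 with normexp, with the filter on all arrays of 1 group, without a filter, with the slide as a block, in the upper rows alone, with the mean of the tumors of mouse 3717, with the probe mean per gene, with slide and row as blocks, and with the mouse as a random replicate block over all 15 arrays. That block was added after seeing the data because the planned one could not be fitted on 10 arrays. They became 0 with quantile normalization, spike-in scaling, the filter on every array, slide 1 alone and an adjusted p under 0.01, and without single tumors they numbered 0 to 3. The cause was not tested. In ICC against HCC, the paired replicate block (mouse) took the call from Ces1b, Aldh1a2, Fmo5, Adh5 and Aldh18a1. Low signal on lower-row arrays limits what dim probes can show.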
